A study of Gallus gallus with 20 samples.

Results

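The NKX homeobox genes analysed here were NKX2-1, NKX2-2, NKX2-5, NKX2-8, NKX3-2, NKX6-1 and NKX6-2. They were taken by symbol from the RefSeq gene table of the chicken genome build GRCg7b, and all 7 matched, out of 17839 protein-coding genes on assembled chromosomes. The chromatin came from lenses of chicken (Gallus gallus) embryos on embryonic day 4.5, combined into 3 pools of about 44 lenses, so each pool mixed many embryos and all cell types of the dissected tissue. CUT&RUN, in which an antibody tethers a nuclease that cuts out the DNA around its target, was run on 100000 nuclei per reaction. The antibodies gave 3 libraries each for the PRC2 proteins EZH2, SUZ12, JARID2 and AEBP2 and for the histone marks H3K27me3 and H3K4me3, and 2 libraries of non-specific IgG completed the 20 samples. AEBP2 antibody was used at 1 in 25, EZH2 and SUZ12 antibodies at 1 in 100, and the other antibodies and IgG at 1 in 50. No genotype or treatment other than the stage was given, and 1 deposited peak list per antibody was used, so no value below has a replicate or a test.

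NKX proteins are homeodomain transcription factors related to the Drosophila NK genes, and they specify organs and cell types outside the lens. NKX2-1 acts in thyroid, lung and ventral forebrain, NKX2-5 in heart, NKX3-2 (BAPX1) in sclerotome and cartilage, and NKX2-2, NKX6-1 and NKX6-2 in the ventral neural tube, where sonic hedgehog signalling sets their domains. Polycomb repressive complex 2 (PRC2) places trimethylation on histone H3 lysine 27 (H3K27me3), a mark of silenced developmental genes. EZH2 is its catalytic subunit, SUZ12 its scaffold, and JARID2 and AEBP2 are accessory subunits. Trimethylation of histone H3 lysine 4 (H3K4me3) marks active and poised promoters.

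The labelled tissue was checked first. All 18 lens marker genes, among them PAX6, FOXE3, PROX1, MAF, the crystallin genes and the lens filament genes BFSP1 and BFSP2, had a H3K4me3 peak and no H3K27me3 peak at their ends. Of the markers of other cell types, H3K4me3 lay at 1 of 8 neural and retinal genes, at 0 of 7 endothelial genes, at 1 of 6 blood genes and at 4 of 7 periocular mesenchyme genes, beside 57.2% of all protein-coding genes, a share that the mesenchyme genes matched. The periocular mesenchyme gene with the highest H3K4me3 fold was PDGFRA with 52.8, and the other 3 had folds of 2.17 to 6.77. The lens marker folds ran from 2.04 at CRYBB1 to 104 at SOX1, with a median of 23.6. The 2 ranges overlapped, with CRYAA at 3.61, CRYBA4 at 5.38 and CRYAB at 5.93. The part of such cells in the values of the NKX genes was not tested, and in pooled tissue a mark on some of the cells cannot be told apart from a weaker mark on all of them. The longest of the 6 lists was that of AEBP2, with 168110 peaks, and the shortest that of H3K4me3, with 11079. The depth of the libraries is unknown, and their number limits the precision.

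All 7 NKX genes carried H3K27me3 without H3K4me3 at their ends. A peak was counted at a gene when it overlapped the window of 1 kb on either side of either gene end by at least 1 bp. By that count H3K27me3 lay at 7 of 7 NKX genes and at 26.0% of all protein-coding genes. H3K4me3 lay at 0 of 7 NKX genes and at 57.2% of all protein-coding genes. H3K27me3 alone was thus found at 7 of 7 NKX genes, against 14.0% of all genes. Both marks together were found at 0 of 7, against 12.0%, H3K4me3 alone at 0 of 7, against 45.3%, and neither mark at 0 of 7, against 28.7%. H3K4me3 was also absent from the 7 gene bodies, for which no share of all genes is given. With windows of 500 bp, 2.5 kb or 5 kb the counts of 7 and 0 were the same. A wider window cannot lower the count of 7, and a narrower one cannot raise the count of 0. Only the H3K27me3 count at 500 bp and the H3K4me3 counts at 2.5 kb and 5 kb were free to change. The shares of all genes are not given for these windows.

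EZH2, SUZ12 and JARID2 peaks also lay at the ends of every NKX gene. The EZH2 count of 7 of 7 stood beside 59.3% of all protein-coding genes and 78.5% of the 2505 genes with H3K27me3 alone. SUZ12 was counted at 7 of 7, beside 64.5% of all genes and 54.7% of genes with H3K27me3 alone. JARID2 was counted at 7 of 7, beside 43.2% and 67.6%. The combination of EZH2, SUZ12 and JARID2 was present at 7 of 7 NKX genes, at 29.6% of all genes and at 37.4% of genes with H3K27me3 alone. Those 3 proteins together with H3K27me3 alone were found at 7 of 7 NKX genes and at 5.25% of all genes. AEBP2 was counted at 3 of 7, NKX2-2, NKX2-8 and NKX3-2, a share close to the 37.1% of all genes and the 45.8% of genes with H3K27me3 alone. NKX2-1 held a further AEBP2 peak inside its body, with a fold of 3.27.

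**Figure D1:**
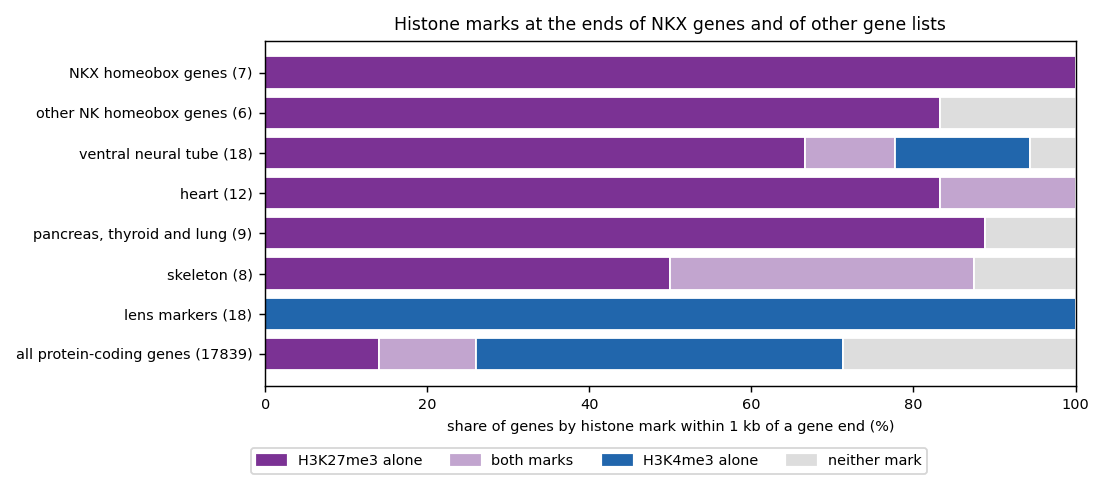
The horizontal axis gives the share of genes, in percent, with H3K27me3 alone, both marks, H3K4me3 alone or neither mark within 1 kb of a gene end, for the 7 NKX genes, 5 lists of related or partner genes, the 18 lens markers and all 17839 protein-coding genes (numbers of matched genes in brackets). All 7 NKX genes fall in the H3K27me3 class and all 18 lens markers in the H3K4me3 class, against 14.0% and 45.3% of all genes.

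The height of the peaks at gene ends, each set against its own list, differed by antibody. A peak counts with its full fold wherever it reaches a window, so the summit of a wide peak can lie outside. The EZH2 summits counted for NKX2-1, NKX2-5 and NKX2-8 lay 4783, 3604 and 1332 bp outside the gene. The JARID2 summits counted for NKX2-1, NKX2-5, NKX2-8 and NKX3-2 lay 1401, 3603, 1348 and 2248 bp outside it. The fold used here is the ratio that the authors' peak caller gave each peak over its background, and it describes a peak within its own list only. At the NKX genes the highest EZH2 fold at a gene end had a median of 131, with a range of 65.8 to 232, against a median of 9.83 over the other 1959 genes with H3K27me3 alone and an EZH2 peak. All 7 values lay above 23.5, the third quartile of those genes, and 5 of 7 lay above 93.3, their 95th percentile. The JARID2 folds had a median of 25.3, with a range of 12.0 to 45.4, against 6.37 over the other 1687 genes with a JARID2 peak, and all 7 lay above the third quartile of 10.0. H3K27me3 folds had a median of 53.6, with a range of 22.6 to 75.8, against 15.997 over the other 2498 genes. NKX2-5, with 22.6, was the only NKX gene inside the middle 50% of those genes.

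SUZ12 and AEBP2 folds were spread more widely around those of the other genes. The SUZ12 folds had a median of 5.78, against 4.10 over the other 1364 genes with H3K27me3 alone and a SUZ12 peak, and they divided the NKX genes. NKX6-1 with 10.6 and NKX2-2 with 9.29 lay above the 95th percentile of 8.04, and NKX6-2 with 6.30 and NKX2-8 with 5.78 above the third quartile of 5.39, while NKX2-1 with 2.95, NKX2-5 with 3.01 and NKX3-2 with 3.54 lay below the median of the other genes. A narrow SUZ12 peak counts only where it reaches a window itself, and in the EZH2 peak over NKX2-1 SUZ12 reached 7.51. The part of peak width in the contrast between EZH2 and SUZ12 was not tested. The 3 AEBP2 folds were 3.997 at NKX2-2, 5.05 at NKX2-8 and 1.54 at NKX3-2, against a median of 3.90 over the other 1144 genes. At the 18 lens markers, for comparison within the same lists, EZH2 lay at 7, with a median fold of 3.32 and a highest fold of 6.56 at FOXE3. SUZ12 lay at 15, with a median fold of 4.23. The shares of all protein-coding genes were 59.3% for EZH2 and 64.5% for SUZ12. The AEBP2 peak at NKX3-2 stood at rank 167980 of the 168110 peaks in its list by fold.

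**Figure D2:**
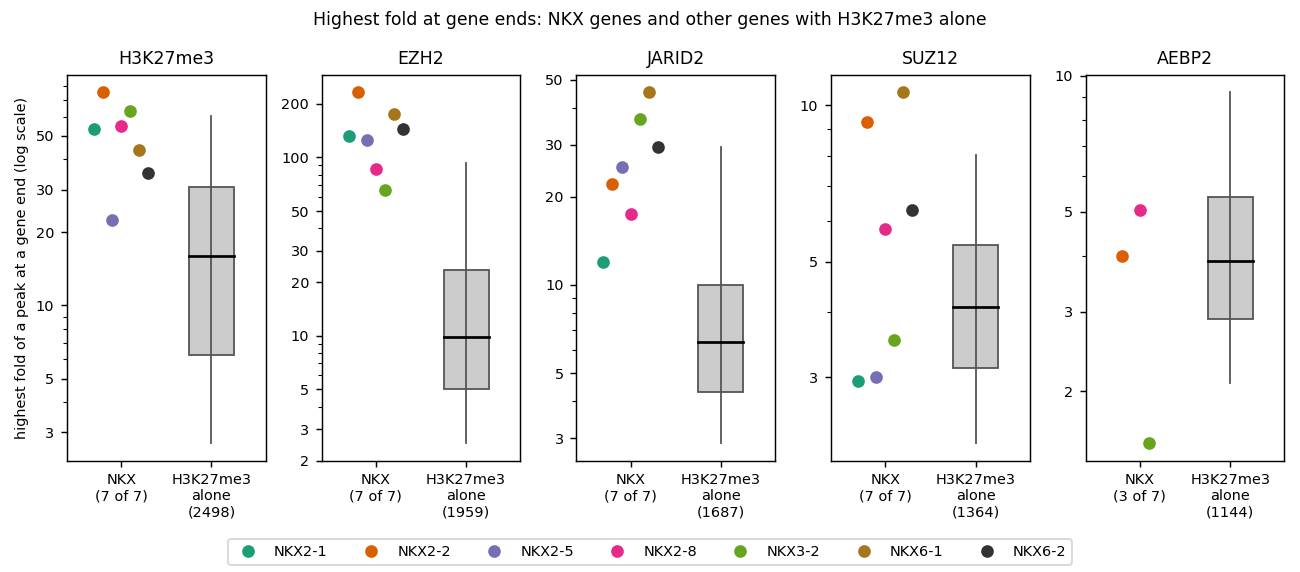
The vertical axes, on a log scale of their own for each antibody, give the highest fold of a peak within 1 kb of a gene end for the NKX genes (points) and for the other genes with H3K27me3 alone and a peak of that antibody (line, median; box, quartiles; whisker, 5th to 95th percentile; number of genes in brackets). The 7 EZH2 points, 65.8 to 232, and the 7 JARID2 points, 12.0 to 45.4, lie above their boxes, whereas the SUZ12 points, 2.95 to 10.6, lie above, in and below their box and the 3 AEBP2 points in and below theirs.

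NKX2-2, which sets the identity of the most ventral interneuron progenitors of the neural tube and of pancreatic islet cells, had the highest EZH2 and H3K27me3 folds among the 7. The gene (gene ID 428549) lies at chr3:3696480-3702770. Its EZH2 fold was 232, rank 4 of 25935 peaks, its H3K27me3 fold 75.8, its JARID2 fold 22.0, its SUZ12 fold 9.29 and its AEBP2 fold 3.997. A further SUZ12 peak inside its body had a fold of 11.1, above the 10.6 at the ends of NKX6-1. As all 7 had EZH2, SUZ12 and JARID2, those with all 4 PRC2 proteins at their ends were the 3 with AEBP2, NKX2-2, NKX2-8 and NKX3-2. That AEBP2 count is near the 37.1% of all genes, and the share of all genes with all 4 is not given. The AEBP2 peak at NKX3-2 had a fold of 1.54 and was lost when peaks under a −log10 q of 5 were left out. H3K27me3 peaks joined across gaps of up to 3 kb are called a domain here. The domain of NKX2-2, chr3:3654528-3726999, was 72.5 kb wide and held 21 EZH2, 20 JARID2, 17 SUZ12 and 6 AEBP2 peaks. It also covered PAX1 and NKX2-4 and ran into the nearer end of XRN2, an exoribonuclease gene. The highest JARID2 fold of the domain, 57.3, lay at PAX1 and not at NKX2-2.

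NKX2-1 and NKX2-8 shared the widest of these domains. NKX2-1 (395322), a regulator of thyroid and lung identity, lies at chr5:36137640-36144955, and NKX2-8 (771397), a related NK2-class gene, at chr5:36182371-36184328. Their common domain, chr5:36092537-36235642, was 143 kb wide and stood at rank 7 by width among 3504 domains that hold an end of a protein-coding gene. At NKX2-1 the folds were 53.6 for H3K27me3, 131 for EZH2, 2.95 for SUZ12 and 12.0 for JARID2, with no AEBP2 peak at its ends. At NKX2-8 EZH2 had a fold of 86.0, H3K27me3 55.2, JARID2 17.5, SUZ12 5.78 and AEBP2 5.05. The EZH2 peak over NKX2-1 was 22.1 kb wide, rank 10 by width of the list, and reached 12.2 kb below the gene and 2.52 kb above it. A JARID2 peak of fold 40.9, higher than the 12.0 at the gene ends, had its summit 2.69 kb from NKX2-1. The highest SUZ12 and AEBP2 folds in the EZH2 peak over NKX2-1, 7.51 and 4.77, also lay away from the gene ends. The same domain held 28 EZH2, 26 JARID2, 16 SUZ12 and 44 AEBP2 peaks.

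NKX6-1 is a gene of ventral neural progenitors, motor neurons and pancreatic beta cells. At its ends it had the highest JARID2 and SUZ12 folds among the 7. The gene (395752) lies at chr4:46375948-46378142. Its folds were 176 for EZH2, 43.6 for H3K27me3, 45.4 for JARID2 and 10.6 for SUZ12, and no AEBP2 peak lay at its ends. Within their own lists these were rank 19 for EZH2 and rank 18 of 48093 for JARID2. The domain, chr4:46309054-46386050, was 77.0 kb wide and reached 66.9 kb below the gene but 7.91 kb above it, up to CDS1, a phospholipid synthesis gene. EZH2 covered 24.8% of it and JARID2 11.2%, the lowest shares of the 6 domains as joined here. The EZH2 share depended on how the domain was drawn: it was 61.6% with gaps of up to 1 kb, where the lowest share was 34.6% at NKX2-8. It was 67.0%, the highest of the 7 genes, when H3K27me3 peaks under a −log10 q of 5 were left out.

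NKX6-2, a ventral neural and glial gene, lies at chr6:36046520-36048979 (395591). Its folds were 144 for EZH2, 35.2 for H3K27me3, 29.6 for JARID2 and 6.30 for SUZ12, with no AEBP2 peak at its ends or anywhere in its domain. A single EZH2 peak of 8.22 kb held 94.9% of the EZH2-covered bases of the domain, chr6:36039797-36063479, which was 23.7 kb wide. One end each of OPNVA, an opsin gene 0.158 kb away, and of INPP5A, a phosphatase gene 2.03 kb away, lay under that same peak. The values of the 3 genes at these ends are therefore not independent, and the peak cannot be assigned to 1 of them.

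NKX2-5, the cardiac progenitor gene, had the lowest H3K27me3 fold among the 7. The gene (396073) lies at chr13:8816351-8818645. Its folds were 124 for EZH2, 22.6 for H3K27me3, 25.3 for JARID2 and 3.01 for SUZ12, with no AEBP2 peak at its ends. It was also the only NKX gene whose SUZ12 peak missed a stricter limit of 5 on the −log10 q scale, at 4.01. The domain, chr13:8805859-8833926, was 28.1 kb wide and held no other protein-coding gene. EZH2 covered 55.3% of it with 5 peaks, and 1 H3K27me3 peak of 22.7 kb made up most of it.

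NKX3-2 promotes cartilage formation in the sclerotome and patterns the jaw joint. At its ends it had the lowest EZH2 fold and the second highest JARID2 fold among the 7. That JARID2 peak lay outside the gene, with its summit 2248 bp away, and only its edge reached the window. The JARID2 peak over the gene itself had a fold of 16.4, so the rank holds for the window and not for the gene body. The gene (373932) lies at chr4:76948888-76950837 and overlaps the uncharacterised gene LOC770295 at its lower-coordinate end, so that the 2 genes share the peaks at that end. Its EZH2 fold was 65.8, its H3K27me3 fold 63.3, its JARID2 fold 36.6, its SUZ12 fold 3.54 and its AEBP2 fold 1.54. In the domain, chr4:76943358-76967481, of 24.1 kb, EZH2 covered 58.4% and JARID2 48.2%, the highest shares among the 6 domains as joined here. With H3K27me3 peaks under a −log10 q of 5 left out, its EZH2 share was 57.5%, below that of NKX6-1.

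**Figure D3:**
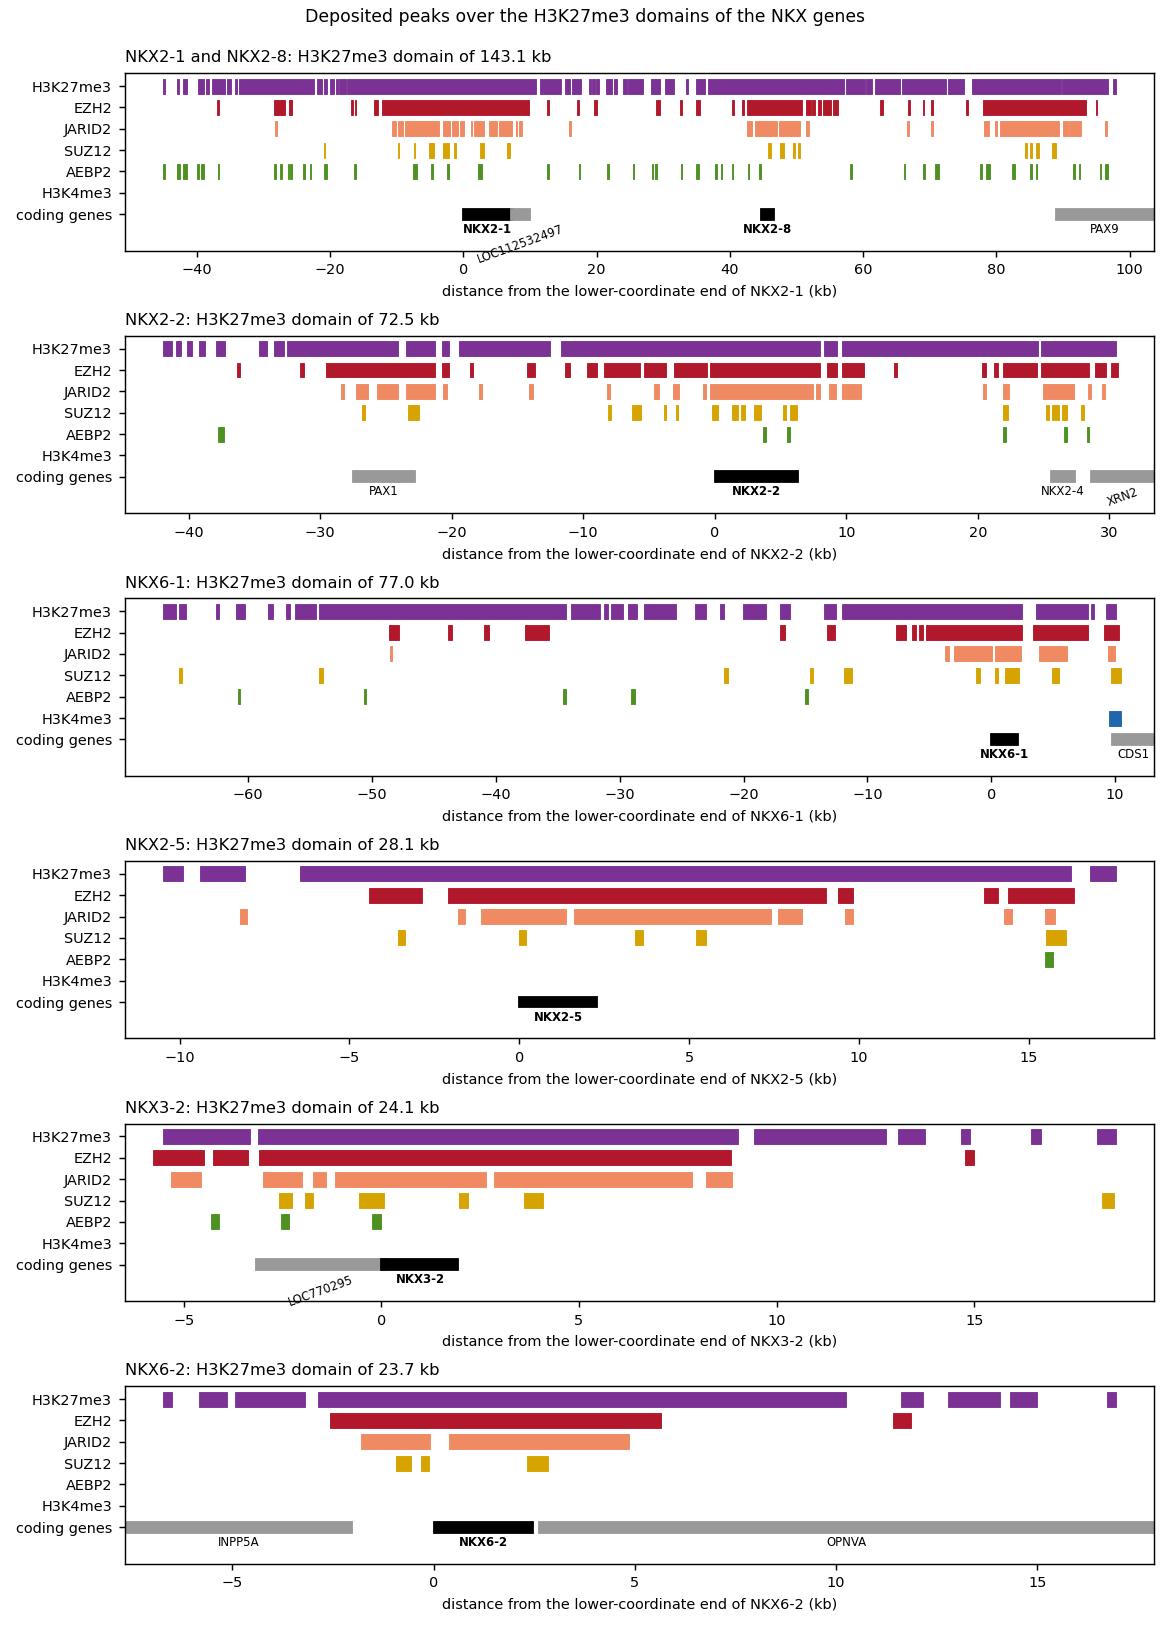
Each panel maps 1 of the 6 H3K27me3 domains that hold the 7 NKX genes: the horizontal axis gives the distance in kb from the lower-coordinate end of the named gene, coloured bars are deposited peaks of 6 lists, and black and grey bars are NKX and other protein-coding genes. H3K27me3 fills most of each domain, EZH2 and JARID2 gather over genes, and the only H3K4me3 peak lies at CDS1, 7.33 kb above NKX6-1.

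The breadth of H3K27me3 was measured next. A single H3K27me3 peak of 12157 to 28418 bp, with a median of 19629 bp, covered 100% of each NKX gene body, as did a single EZH2 peak of 7784 to 22072 bp. The bodies are short, 1950 to 7316 bp. The share of all genes with such cover is not given, so the cover is not read as particular to the NKX genes. JARID2 peaks covered 67.4% to 100% of the bodies, SUZ12 peaks 3.95% to 58.0% and AEBP2 peaks 0% to 8.47%. The 6 domains had a median width of 50.3 kb, against 4.37 kb over the other 3498 domains with a gene end, and each of the 6 was wider than 20 kb, a width reached by 338 of 3504 domains. With gaps of up to 1 kb the median over the 7 genes was 24.04 kb, against 72.5 kb with gaps of up to 3 kb, and the domains of NKX6-1, 15.95 kb, and NKX6-2, 16.98 kb, fell below 20 kb. The order by width was NKX2-1 with NKX2-8, NKX6-1, NKX2-2, NKX2-5, NKX3-2 and NKX6-2. This order turned with the setting: with gaps of up to 1 kb NKX2-2 had the widest domain, 65.2 kb, and NKX6-1 the narrowest, and NKX6-1 was also the narrowest, at 21.3 kb, with peaks under a −log10 q of 5 left out. Without replicates the order has no error.

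Against the other 332 domains of at least 20 kb with a gene end, the NKX domains had higher median shares of EZH2 and JARID2 and a like share of H3K27me3. H3K27me3 peaks covered 73.2% to 90.5% of the NKX domains, with a median of 82.3%, against a median of 81.7% in the other wide domains. EZH2 covered 24.8% to 58.4%, with a median of 45.8%, against 23.0%, and all 6 shares lay above that median. JARID2 covered 11.2% to 48.2%, with a median of 27.4%, against 11.6%, with 5 of 6 above. The interquartile ranges of the other domains were 9.69% to 45.3% for EZH2 and 5.04% to 24.3% for JARID2, so that 3 of 6 EZH2 shares and 5 of 6 JARID2 shares lay above them. SUZ12 covered a median of 5.56%, against 4.29%, and AEBP2 1.84%, against 1.91%. None of these differences was tested.

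**Figure D4:**
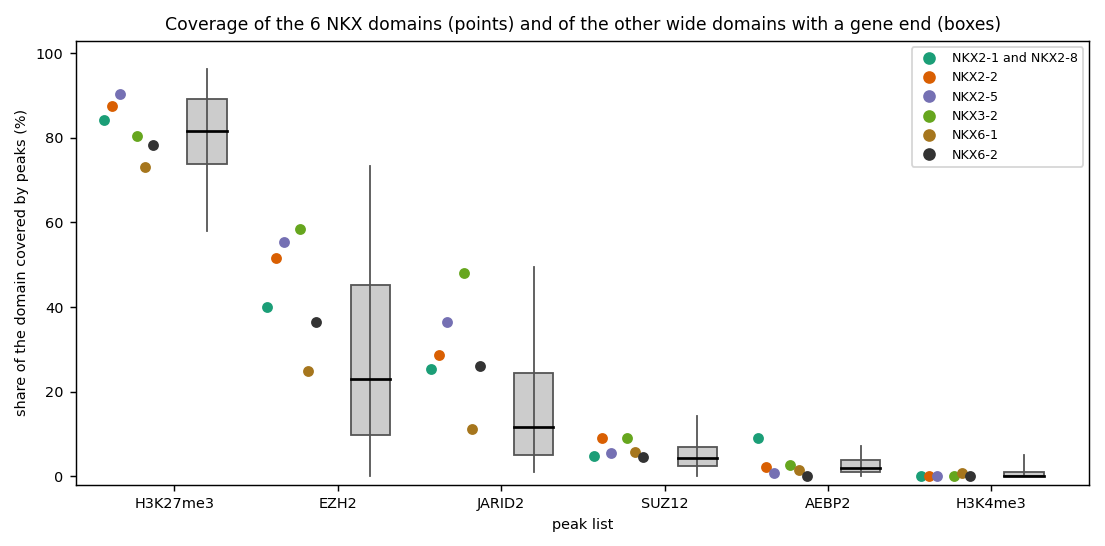
The vertical axis gives the share of a domain, in percent, covered by the peaks of each list on the horizontal axis, for the 6 NKX domains (points) and the other 332 domains of at least 20 kb with a gene end (line, median; box, quartiles; whisker, 5th to 95th percentile). EZH2 points lie between 24.8% and 58.4% around and above a box centred on 23.0%, and the AEBP2 point at 9.10% belongs to the domain of NKX2-1 and NKX2-8.

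PRC2 peaks inside these domains lay mostly on EZH2. Of the SUZ12 peaks in the 6 domains, 50 of 57 overlapped an EZH2 peak, or 87.7%, against 23.1% of the whole SUZ12 list. Of the JARID2 peaks, 64 of 68 did, or 94.1%, against 20.4% of the list. Of the AEBP2 peaks, 34 of 59 did, or 57.6%, against 4.81% of the list. The EZH2 list as a whole covered 18.1 Mb, and the overlaps were not adjusted for the denser EZH2 cover of these domains. Within the EZH2 peak that covers each gene, JARID2 covered 67.2% at NKX2-1, 96.9% at NKX2-2, 82.8% at NKX2-5, 88.2% at NKX2-8, 90.5% at NKX3-2, 72.4% at NKX6-1 and 75.3% at NKX6-2. JARID2 thus tracked EZH2 over most of each gene, while SUZ12 covered 6.495% to 29.8% of the same peaks in 3 to 7 separate narrow peaks.

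H3K27me3 extended well beyond EZH2. In the domain of NKX6-1, 67.0% of the H3K27me3-covered bases, 37.7 kb, held no EZH2 peak. The share was 53.2%, or 64.0 kb, in the domain of NKX2-1 and NKX2-8, 54.3% at NKX6-2, 42.4% at NKX2-2, 39.3% at NKX2-5 and 27.8% at NKX3-2. These shares and their order belong to domains joined across gaps of up to 3 kb and were not computed for other settings. With gaps of up to 1 kb EZH2 covered 61.6% of the domain of NKX6-1, against 24.8%. The 16 H3K27me3 peaks of at least 5 kb in the domains show where the H3K27me3 without EZH2 lay. The 10 that hold an end of a protein-coding gene were covered by EZH2 to a median of 74.8%, and the highest EZH2 fold in each had a median of 128. The 6 without such an end were covered to a median of 18.4%, with a median highest fold of 9.81. Here the end itself had to lie in the peak, without the window of 1 kb used elsewhere. Those of the 6 with the highest covers, 55.4% and 34.2%, came within 1 kb of an end, of PAX9 and of NKX2-4. Outside the NKX domains the medians were 45.6% for 988 wide peaks with a gene end and 13.1% for 647 without one. The contrast was therefore not confined to the NKX domains.

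The longest of the 6 peaks without a gene end lay 54.3 to 34.4 kb below NKX6-1. It was 19.9 kb wide with a H3K27me3 fold of 38.1, close to the 43.6 of the peak over the gene itself. EZH2 covered 17.3% of it with a highest fold of 11.2, against 63.4% and 176 over the peak at NKX6-1, and JARID2 covered 1.07%, against 38.9%. A second such peak, 33.7 to 22.4 kb below NKX2-1, had a H3K27me3 fold of 47.4 and an EZH2 cover of 19.4% with a highest fold of 8.38. Of the 6 peaks, the highest EZH2 cover, 55.4%, belonged to one inside the body of PAX9, within 1 kb of its lower-coordinate end.

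**Figure D5:**
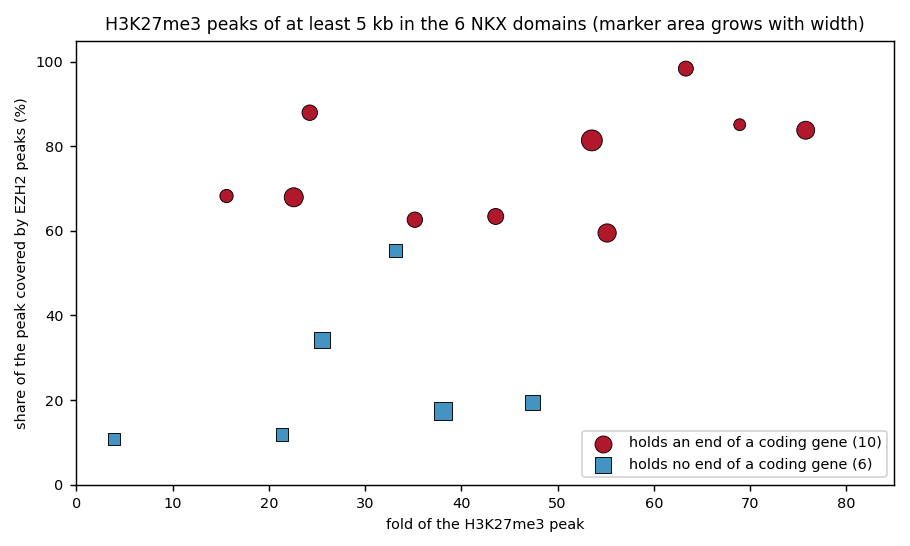
The horizontal axis gives the fold of each H3K27me3 peak of at least 5 kb in the 6 NKX domains and the vertical axis the share of it, in percent, covered by EZH2 peaks; circles are the 10 peaks that hold an end of a protein-coding gene, squares the 6 that hold none, and larger markers are wider peaks. The circles lie between 59.5% and 98.4%, above all 6 squares, which lie between 10.8% and 55.4%.

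The summit, the position of highest signal in a peak, was compared for the highest peak of each list at each gene. At NKX6-1 the summits of H3K27me3, EZH2, SUZ12 and JARID2 fell at 2064, 2071, 2046 and 2021 bp from the lower-coordinate end, inside the gene and close to its upper end. At NKX2-2 the H3K27me3 and EZH2 summits were 2 bp apart, 218 and 216 bp inside the upper end. At NKX2-5 the EZH2 and JARID2 summits were 1 bp apart, but 3.60 kb above the gene. At NKX2-1 no such pair was close: EZH2 peaked 4783 bp below the gene and H3K27me3 at 1783 bp inside it. Over the 7 genes, EZH2 and H3K27me3 summits lay within 100 bp of each other at 3 of 7, against 36.4% of genes with H3K27me3 alone and both peaks. EZH2 and JARID2 summits did so at 3 of 7, against 22.7%. With 7 genes, neither count is read as a difference from the background. The median distances were longer at the NKX genes than at the other genes with H3K27me3 alone for all 4 pairs measured. They were 2296 bp against 260 bp for EZH2 and H3K27me3, 724 bp against 462 bp for EZH2 and JARID2, 2190 bp against 657 bp for EZH2 and SUZ12, and 3363 bp against 747 bp for JARID2 and SUZ12. EZH2 peaks over the NKX genes were 7784 bp wide or more, against a median of 377 bp over the whole list, and the part of peak width in these distances was not tested.

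H3K4me3 lay outside the domains with 1 exception. The H3K4me3 peak nearest to an NKX gene lay 7.33 kb above NKX6-1 at CDS1, with a fold of 4.61, and it was the only H3K4me3 peak inside any of the 6 domains. The distances were 19.0 kb at NKX3-2 to a peak at RAB28, a small GTPase gene, 24.004 kb at NKX2-5 to one at BNIP1 and CREBRF, and 44.2 kb at NKX6-2 to one at TCTN3. They were 66.7 kb at NKX2-2 to a peak at XRN2, 96.0 kb at NKX2-1 and 141 kb at NKX2-8, both to a peak at MBIP. Of the 9 other protein-coding genes that overlap the domains, 7 had H3K27me3 alone (PAX1, PAX9, NKX2-4, INPP5A, OPNVA, LOC770295 and LOC112532497), and XRN2 and CDS1 had both marks. The shares of all genes were 14.0% and 12.0%, but these 9 were taken for their overlap with H3K27me3 domains, which largely sets that mark. At CDS1 the peaks of both marks overlap, but that of H3K27me3 was weak, with a fold of 1.65. Its −log10 q of 2.59 lay under the stricter limit of 5. At XRN2 H3K27me3 lay at the lower-coordinate end, in the domain, and the H3K4me3 peak nearest to NKX2-2 at the other end. The nearest neighbour that does not overlap the NKX gene was taken on either side of each. Of these 14, 7 had H3K27me3 alone, against 14.0% of all genes. The 7 include NKX2-8 itself and all lie in the NKX domains, some under the same peak, so they are not independent of the NKX genes. CDS1 had both marks, and 6 had H3K4me3 alone: MBIP, BNIP1, STC2, BOD1L1, RAB28 and GPAT3. The last count is near the 45.3% of all genes with H3K4me3 alone. Their H3K4me3 folds ran from 11.8 at STC2 to 23.9 at MBIP.

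Further NK homeobox genes were set beside them. Of NKX1-1, NKX1-2, NKX2-3, NKX2-4, NKX2-6 and NKX6-3, 5 of 6 had H3K27me3 alone, against 14.0% of all genes, and NKX6-3 had neither mark. EZH2 lay at 6 of 6, SUZ12 at 4, JARID2 at 5 and AEBP2 at 2. Over all protein-coding genes the shares were 59.3%, 64.5%, 43.2% and 37.1%, so the SUZ12 and AEBP2 counts are near them. The EZH2 folds of these NK genes were 124 at NKX2-3, 119 at NKX1-1, 49.2 at NKX2-4, 39.2 at NKX2-6, 28.8 at NKX1-2 and 2.23 at NKX6-3. NKX2-3 and NKX1-1 thus fell within the range of the 7 genes, 65.8 to 232, and the others fell below it. H3K27me3 folds were 68.9 at NKX2-4, which shares the domain of NKX2-2, 43.4 at NKX1-2, 37.0 at NKX2-6, 31.2 at NKX1-1 and 14.8 at NKX2-3.

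Genes listed as partners of the NKX factors in their own tissues were counted by the marks at their ends. Over all protein-coding genes 14.0% had H3K27me3 alone, 12.0% both marks, 45.3% H3K4me3 alone and 28.7% neither. Of 18 genes in the ventral neural tube list, 12 had H3K27me3 alone. PAX3 led with a H3K27me3 fold of 88.9, ahead of ISL1 with 76.9 and LHX3 with 70.3. EN1 with 65.1, OLIG2 with 59.0 and PAX7 with 54.3 followed. The name is that of the list only, as PAX3 and PAX7 are not ventral genes. PAX6, PTCH1 and GLI3 had H3K4me3 alone, with H3K4me3 folds of 70.2, 53.6 and 16.9, GLI1 and DBX2 had both marks, and GLI2 had neither. PAX6 is at once a lens and a ventral neural tube gene, PTCH1 encodes the sonic hedgehog receptor, and the GLI genes encode the transcription factors of that pathway. SHH itself had H3K27me3 alone, with a fold of 32.3.

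Of 12 heart genes, 10 had H3K27me3 alone, led by GATA5 with a H3K27me3 fold of 74.2, TBX5 with 63.0, HAND2 with 38.3, GATA4 with 38.0, HAND1 with 34.6 and MYOCD with 24.1. TBX2 and TBX20 had both marks. GATA6 and IRX4, both with 20.9, NPPA with 3.99 and MEF2C with 3.57 followed the 6 led by GATA5. NKX2-5, with 22.6, thus lay below 6 and above 4 of the 10 heart genes with H3K27me3 alone. It also lay below TBX2 with 55.5 and TBX20 with 30.7. Of 9 pancreas, thyroid and lung genes, 8 had H3K27me3 alone, led by NEUROD1 with 56.6, PTF1A with 42.2, PDX1 with 38.5, NEUROG3 with 33.0, MNX1 with 23.7 and INSM1 with 23.1, and SFTPA1 had neither mark. Of 8 skeletal genes, 4 had H3K27me3 alone, MEOX2 with 46.7, PAX1 with 34.7, PAX9 with 33.2 and BARX1 with 21.6. PAX1 and PAX9 lie in the NKX domains, so their calls are not independent of the NKX genes. SOX9, SOX6 and SOX5, which drive cartilage formation, had both marks, and MEOX1 had neither. EZH2 lay at 18 of 18 genes in the ventral neural tube list and at 10 of 12 heart genes. It lay at 8 of 9 pancreas, thyroid and lung genes and at 7 of 8 skeletal genes. The share of all protein-coding genes with EZH2 was 59.3%. The median EZH2 folds of the genes with a peak were 62.8, 63.4, 65.4 and 27.7 in the same order of lists, beside 131 at the 7 NKX genes.

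For each NKX gene the 3 most similar genes over the 6 lists were found by the mean difference in percentile rank of the highest fold at a gene end. These lay outside the NKX domains and more than 1 Mb away. Ranks of high folds lie close together, so genes near in rank can differ in fold. Among the 3 named for NKX6-1, which had an EZH2 fold of 176, EZH2 folds ran from 65.0 at PDX1 to 202 at DLX5. NKX6-1 was most like POU3F3, with a mean difference of 0.207 percentile points, DLX5 with 0.357 and PDX1 with 0.365. NKX2-1 was most like FGF5 with 0.283, HOXD3 with 0.647 and MSX2 with 0.784, and NKX6-2 most like PAX2 with 0.472, GATA5 with 0.806 and HOXC12 with 0.830. NKX2-5 was most like NR4A2 with 0.585, TLX1 with 0.611 and OTP with 0.613, and NKX2-8 most like PRDM13 with 0.662, GPR139 with 0.682 and FOXB2 with 1.36. NKX2-2 was most like FGF18 with 1.01, HOXD10 with 1.08 and HOXD9 with 1.10, and NKX3-2 most like FOXC1 with 1.59, CDKN2A with 1.73 and BSX with 1.77.

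Among the NKX genes themselves, the nearest pairs by this measure were NKX2-1 with NKX2-5 at 1.61, NKX6-1 with NKX6-2 at 2.08 and NKX2-2 with NKX2-8 at 3.50 percentile points. The farthest pair was NKX2-2 and NKX2-5 at 18.6. At their ends NKX2-1 and NKX2-5 both had a low SUZ12 fold and no AEBP2 peak. NKX2-2 and NKX2-8 had a higher SUZ12 fold and an AEBP2 peak there. This grouping holds for the gene ends only. In the EZH2 peak over each gene, SUZ12 reached 7.51 at NKX2-1, 7.35 at NKX2-8, 11.1 at NKX2-2 and 3.01 at NKX2-5. The AEBP2 peaks in it numbered 4, 2, 2 and 0 in the same order of genes. NKX2-1 and NKX2-8, which share a domain, differed by 16.5 points.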

How the data were processed

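Per the submitters' processing notes, reads were handled with Trim Galore 0.6.4, Bowtie2 2.4.1 and MACS2 2.2.7.1 on GRCg7b. For the pooling of libraries and the control of the peak calls, the sources used here give nothing. The deposited lists give each peak a fold ratio over background, p- and q-values on the −log10 scale, the q-value adjusted within the list, a summit offset and a score of 10 times the −log10 q. Fold, −log10 q and summit were used. IgG values were not used here, and no background is given.

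Peaks were joined to the RefSeq gene table with Python 3.11.15, pandas 2.3.3, numpy 2.4.6 and matplotlib 3.10.9. The table has no strand, so both gene ends were used, each with a window of 1 kb. The overlap and joining steps were tested on simulated data. Named genes are the 7 NKX genes, further NK genes, partner and marker genes (up to 6 per state by fold), genes in or beside the domains and the 3 genes of nearest pattern. SHH, CREBRF and TCTN3 were added after their values were seen. Some genes that these rules pick were left out of the lists and are not reported here. Symbols without a match were DBX1, PAX8, SFTPC, ELAVL3 and GATA1. Members and lists were chosen with earlier results of these data known. With 1 list per antibody no test was made. Promoter, motif and protein sequences were not analysed here.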

Additional observations from a re-analysis of the deposited data

How the results depend on the processing

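Of 57 alternative values, 51 stayed near the value reported (counts within 1.5 times of it). Some of the 51 could not move. Each NKX gene had 1 domain, so taking only the widest changed nothing, and counts of both marks follow from H3K4me3 counts of 0. Wider windows and the whole gene cannot lower a count of 7. Narrower windows, the stricter limit, shortened lists and the summit rule cannot raise a count of 0. The number of values that stayed is therefore not a measure of how firm the results are. The EZH2 count fell to 4 of 7 (NKX2-2, NKX3-2, NKX6-1 and NKX6-2) when the peak summit itself had to lie in the window, and the H3K27me3 count to 5 of 7, without NKX2-1 and NKX3-2. The EZH2 peaks over the genes are wider than the windows. The AEBP2 count fell to 1 of 7, NKX2-8, when each list was cut to its 11079 strongest peaks, which keeps few AEBP2 peaks. The median domain width over the 7 genes, 72.5 kb, became 24.04 kb with gaps of up to 1 kb and 26.7 kb under the stricter limit on −log10 q, 5, and the median share of the domain covered by EZH2, 40.1%, became 57.0% and 51.5%. Under both settings NKX2-1 and NKX2-8 had separate domains, of 57.4 and 40.2 kb and of 74.6 and 61.9 kb. The domain of NKX6-1 narrowed to 15.95 and 21.3 kb and its EZH2 share became 61.6% and 67.0%, against 24.8%, so that the ranks of the domains by width and by EZH2 share turned. The counts of H3K4me3 and of both marks were 0 under each of the 7 alternatives run on them. Of these, only the wider windows and the whole gene could have raised them. SUZ12 was counted at 6 of 7 under the stricter limit and at 5 of 7 in the shortened lists. No shares of all protein-coding genes are given for the alternatives. The shares above belong to the main setting, so the changed counts cannot be set against them. No paired analysis was possible because each antibody has 1 list, which carries none of the pool numbers that the libraries share, and for the same reason no library could be left out. Promoter, motif and protein comparisons were not run. Depth per library is unknown, the antibodies were used at different dilutions, and folds are not comparable between lists.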

Other observations

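AEBP2 was spread unevenly over the NKX domains. The median fold of its 59 peaks in the 6 domains was 3.38, against 3.71 over the whole AEBP2 list. The domain of NKX2-1 and NKX2-8 held 44 of the 59 AEBP2 peaks, which covered 9.10% of it, a share above that of 96.4% of the other 332 domains of at least 20 kb with a gene end. Their highest fold was 6.63, at a summit 44.95 kb from NKX2-1, and 4 of the 44 lay in the EZH2 peak over NKX2-1 and 2 in the one over NKX2-8. The other domains held 6 AEBP2 peaks at NKX2-2, 5 at NKX6-1, 3 at NKX3-2, 1 at NKX2-5 and 0 at NKX6-2, covering 0% to 2.68% of them. JARID2 covered 25.3% of the domain of NKX2-1 and NKX2-8, above 75.6% of the other wide domains, and SUZ12 4.81%, above 56.6% of them.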
